A study of Mus musculus with 11 samples.

Results

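Genes linked to mechanical signalling were examined in lung mesenchymal cells of mice that had undergone pneumonectomy (PNX), an operation in which lung tissue is removed. They are the CCN family genes Ctgf (Ccn2), Cyr61 (Ccn1), Nov (Ccn3), Wisp1 (Ccn4) and Wisp2 (Ccn5), the YAP pathway regulators Yap1, Wwtr1 and Tead1, and the YAP target genes Ankrd1 and Amotl2. They were chosen by symbol and are 10 of the 24411 genes in the count table. All 10 were among the 16011 genes that passed the filter on low counts and were tested. The cells came from lungs of C57BL6 mice and were sorted as negative for the epithelial marker EpCAM, the haematopoietic marker CD45 and the endothelial marker CD31. The groups were PNX at day 7 (3 libraries), sham at day 7 (3 libraries), PNX at day 14 (3 libraries) and sham at day 14 (2 libraries). No allele, drug or age is given in the labels, and no label says that the replicates came from separate animals, so each p-value reflects variation among libraries, part of which may be technical.

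YAP (encoded by Yap1) and TAZ (encoded by Wwtr1) are transcriptional coactivators. The Hippo kinases phosphorylate them and keep them out of the nucleus. On a stiff or stretched substrate they enter the nucleus, bind TEAD factors such as TEAD1 and switch on targets that include Ctgf, Cyr61, Ankrd1 and Amotl2. CCN proteins are secreted into the extracellular matrix, where they bind integrins and other surface receptors. In lung fibroblasts YAP, TAZ and CTGF are known for their part in fibrosis. The activity of YAP and TAZ is set largely by their location in the cell, which transcript counts do not measure.

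RefSeq promoter windows were at hand for 5 of the 10 genes, Cyr61, Yap1, Wwtr1, Ankrd1 and Amotl2. Each window covered the 250 bases before a RefSeq transcription start in GRCm38.p6, the patched assembly of mm10. The windows of the 3 target genes are shown because TEAD binding is the step through which YAP and TAZ reach them. Capitals mark the TEAD hexamer GGAATG or its reverse complement CATTCC, searched on both strands. Cyr61 is on the minus strand (chr3:145649986-145650235), Ankrd1 on the minus strand (chr19:36119845-36120094) and Amotl2 on the plus strand (chr9:102717554-102717803).
Cyr61: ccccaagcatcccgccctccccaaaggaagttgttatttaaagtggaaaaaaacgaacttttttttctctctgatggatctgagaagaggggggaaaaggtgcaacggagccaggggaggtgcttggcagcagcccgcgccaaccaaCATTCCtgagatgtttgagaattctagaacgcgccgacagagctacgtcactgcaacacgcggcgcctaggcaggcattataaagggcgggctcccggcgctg
Ankrd1: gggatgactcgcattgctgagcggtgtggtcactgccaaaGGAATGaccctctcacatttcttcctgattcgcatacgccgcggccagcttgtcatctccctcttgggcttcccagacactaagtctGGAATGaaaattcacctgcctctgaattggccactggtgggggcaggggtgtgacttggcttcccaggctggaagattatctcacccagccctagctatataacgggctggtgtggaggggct
Amotl2: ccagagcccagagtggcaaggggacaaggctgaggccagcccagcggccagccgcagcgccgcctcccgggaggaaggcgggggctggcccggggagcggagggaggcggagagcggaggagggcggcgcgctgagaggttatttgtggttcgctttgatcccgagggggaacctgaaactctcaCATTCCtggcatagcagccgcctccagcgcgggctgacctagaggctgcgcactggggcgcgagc

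The hexamer began 103 bases before the start of Cyr61, 210 and 123 bases before that of Ankrd1 and 65 bases before that of Amotl2. The windows of the coactivator genes held it too, 141 bases before the start of Yap1 and, for the 2 annotated starts of Wwtr1, 136 and 170 bases before. The 2 windows of Wwtr1 overlap, and these distances mark the same site. The hexamer was found in 12.6% of 32851 promoter windows of the same length. The AP-1 motif TGANTCA, present in 6.75% of all windows, and the CArG box bound by serum response factor, present in 1.47%, did not occur in these windows. A match describes the letters of the window and is not a measured binding site.

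Total counts per library ranged between 2539628 and 9008592. Expression is given as CPM, the read count of a gene relative to the scaled library total, with TMM scaling. The mesenchymal markers Pdgfra and Dcn were detected in every library, at mean levels of 433.1 to 987.4 and of 6058 to 11350 CPM in the 4 groups. The gated-out markers Epcam, Ptprc and Pecam1 had group means of 2.14 to 8.91, 7.41 to 34.5 and 39.0 to 113.5 CPM. Other transcripts of such cells were higher. The epithelial surfactant gene Sftpc, the haematopoietic gene Cd74 and the haemoglobin gene Hba-a1 had group means of 1075 to 12000, 375.2 to 1399 and 12060 to 36510 CPM. Counts on 1462 olfactory and vomeronasal receptor genes, used here as a rough index of background, took 91.6 to 1635 CPM of a library. They were highest in replicate 1 of sham at day 14 and in replicate 2 of both PNX and sham at day 7. Counts on Y-linked genes were absent from 4 libraries, sham day 7 replicate 3, PNX day 14 replicates 2 and 3 and sham day 14 replicate 1, and present in the other 7.

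The genes differed widely in level. Per kilobase of exon, Cyr61 averaged 1175 ± 549 CPM (SD, n = 11 libraries) and was the most abundant of the 10 in mean level. Wisp2 averaged 93.7 ± 46.9 CPM per kilobase, Ctgf 23.0 ± 13.1, Nov 19.2 ± 7.82 and Wwtr1 17.5 ± 3.40. Amotl2 averaged 10.4 ± 3.94 CPM per kilobase, Wisp1 9.66 ± 5.58, Yap1 4.90 ± 1.22, Tead1 4.74 ± 1.55 and Ankrd1 2.83 ± 0.907. Only Cyr61 was clear of its neighbour in this order, since its lowest library (644 CPM per kilobase) was above the highest of Wisp2 (198 CPM per kilobase). The ranges of all other neighbours overlapped. The remaining family gene, Wisp3 (Ccn6), had 0 to 4 counts per library and was removed by the filter on low counts.

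Variation between libraries also differed between the genes. The SD of log2 CPM over the 11 libraries was 0.81 for Wisp1, 0.78 for Ctgf and 0.75 for Wisp2, against 0.27 for Wwtr1, 0.41 for Yap1 and 0.46 for Amotl2. Its median was 0.48 over the 6660 genes with a mean of at least 20 CPM. The highest Wisp1 library held 7.39 times the CPM of the lowest, and the highest Wwtr1 library 1.93 times that of its lowest.

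**Figure D1:**
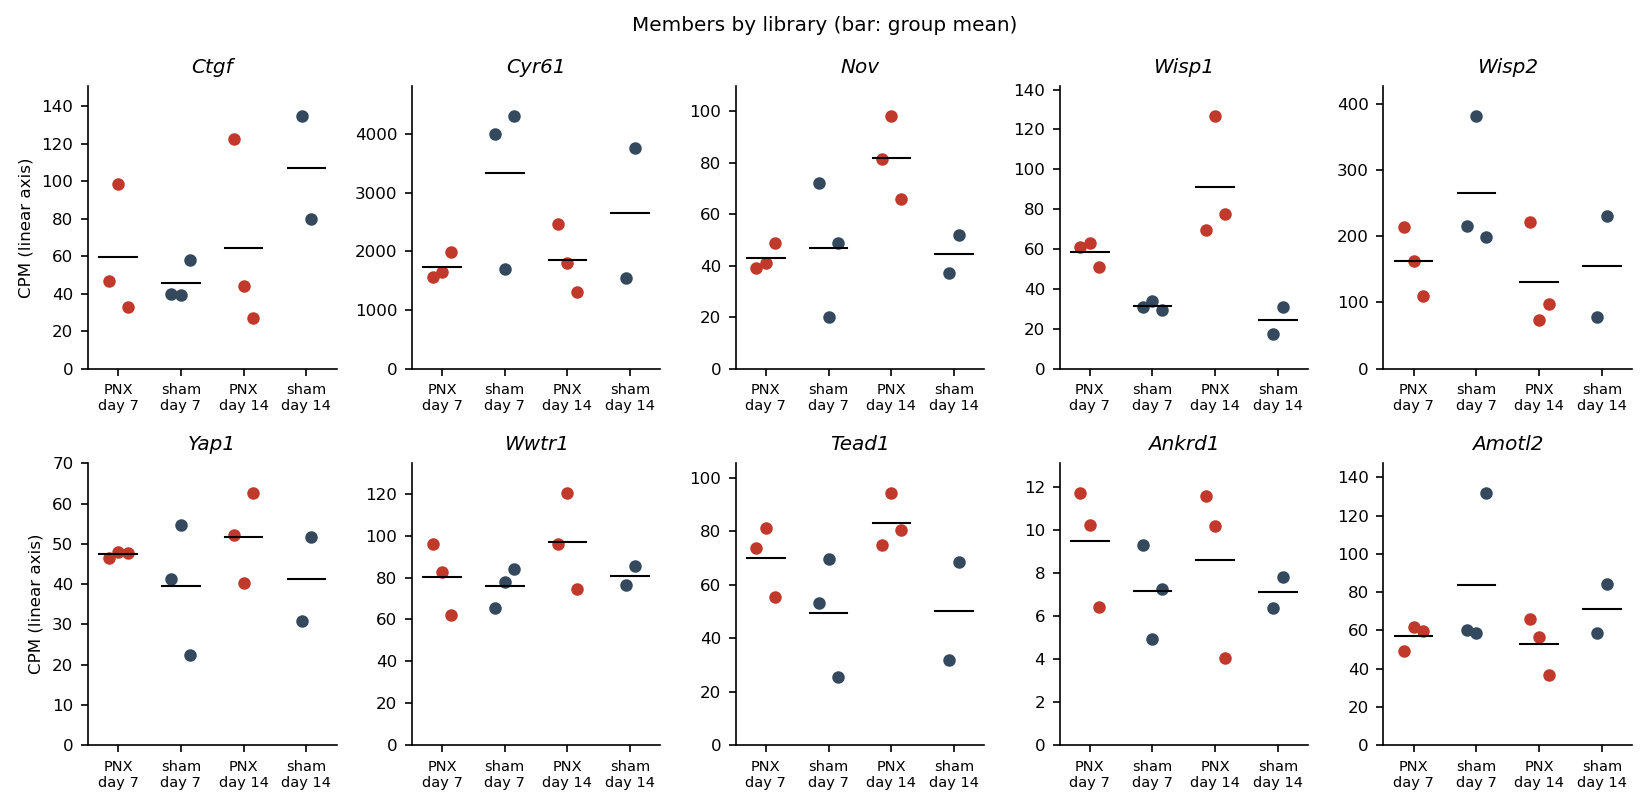
Each panel plots 1 gene in CPM on a linear axis that starts at 0, with 1 point per library (red PNX, blue sham) and a bar at the group mean. Wisp1 is the only one of the 10 in which all 6 PNX libraries, at 51.1 to 126.6 CPM, lie above all 5 sham libraries, at 17.1 to 33.9 CPM.

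Wisp1 rose after PNX in the mean of both days, and of the 10 genes it alone passed the test. Its difference from the other CCN genes was not tested. Wisp1 encodes a matricellular protein known as a target of Wnt signalling and as a factor that acts on fibroblasts. It lies on mouse chromosome 15 (mm10, 66891320 to 66923201, plus strand). At day 7 it measured 60.8, 63.1 and 51.1 CPM after PNX, against 30.9, 33.9 and 29.3 CPM after sham. At day 14 it measured 69.4, 126.6 and 77.8 CPM after PNX, against 17.1 and 31.1 CPM after sham. The PNX and sham libraries did not overlap on either day, and the highest value of all was PNX day 14 replicate 2.

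In the mean of both days the log2 fold change of Wisp1 was 1.40 ± 0.25 (SE; 95% interval 0.87 to 1.93), a 2.64-fold higher level after PNX (adjusted p = 0.0228, edgeR quasi-likelihood test with Benjamini-Hochberg adjustment over all genes tested). Over all genes 0.194% were called in this comparison, 22 higher and 9 lower, and 1 of the 10 genes was. An unadjusted p under 0.05 in edgeR was found for 3 of the 10 (Wisp1, Cyr61 and Tead1), against 10.3% of all genes. Groups that did not overlap, counted over 6 PNX and 5 sham libraries, were seen for 1.08% of all genes and for Wisp1 alone among the 10. By p-value Wisp1 was number 21 of the 16011 genes.

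The mean of both days combines the comparisons at each day and shares their libraries. At day 7 the log2 fold change of Wisp1 was 0.89 ± 0.33 (SE), with an adjusted p of 0.235 in edgeR. At day 14 it was 1.90 ± 0.39, with an adjusted p of 0.0905 in edgeR. The difference between the days, tested as an interaction, was 1.01 ± 0.49 (95% interval -0.02 to 2.04) with an adjusted p of 0.576 in edgeR, so a larger effect at day 14 was not shown. The interaction was 1.72 (adjusted p = 0.0863 in edgeR) when sham day 14 replicate 2 was omitted and 0.66 (adjusted p = 1 in edgeR) on omission of the other sham library of that day. The call in the mean of both days was lost, at an adjusted p of 0.0695, 0.0592, 0.111 and 0.0693, on omission, in turn, of PNX day 7 replicate 1, of sham day 7 replicate 3 and of replicates 2 and 3 of PNX at day 14. It was also lost without the 3 libraries of highest olfactory and vomeronasal receptor counts (log2 fold change 1.23, adjusted p = 0.0586 in edgeR), and with limma voom in place of edgeR (1.34, adjusted p = 0.0911).

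Among libraries with Y-linked counts, Wisp1 ranged over 51.1 to 69.4 CPM in 4 PNX libraries and 30.9 to 33.9 CPM in 3 sham libraries. Among those without, the 2 PNX libraries had 77.8 and 126.6 CPM and the 2 sham libraries 17.1 and 29.3 CPM. The PNX libraries without Y-linked counts were all of day 14, and most of those with them were of day 7. Among PNX libraries this division is thus largely one of day as well. Since every PNX library was above every sham library, no division of the libraries could have shown an overlap.

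Some of the listed cell type markers also differed between PNX and sham in the same libraries. The 12 listed alveolar fibroblast genes summed to 3316 to 6432 CPM in PNX libraries and 6306 to 10910 CPM in sham libraries. All 12 had negative log2 fold changes in the mean of both days. Of these, 2 were called lower and 10 had an unadjusted p under 0.05 in edgeR. Over all genes 46.6% had positive values in this comparison, 0.194% were called and 10.3% had an unadjusted p under 0.05 in edgeR. Of 21 haematopoietic genes 18 had negative values and 1 was called lower, with sums of 329.2 to 2039 CPM in PNX libraries and 224.7 to 2454 CPM in sham libraries. Within these sums Cd74 alone had group means of 375.2 to 1399 CPM. In the mean 11 were lower and 0 higher at an unadjusted p under 0.05 in edgeR. At day 14 all 21 had negative values, with a median log2 fold change of -2.48. Of these, 14 had an unadjusted p under 0.05 in edgeR, against 6.81% of all genes. Of 14 epithelial genes 3 had positive values in the mean of both days and 1 was called higher there. That gene, Krt18 (log2 fold change 1.57), is a keratin gene that mesothelial cells also express. At an unadjusted p under 0.05 in edgeR 2 epithelial genes were higher and 1 lower. Epithelial sums ran over 1108 to 18140 CPM in PNX libraries and 389.7 to 13760 CPM in sham libraries. All 12 endothelial genes had positive values and none was called by edgeR, none also at an unadjusted p under 0.05, with sums of 153.3 to 1383 CPM in PNX libraries and 251.7 to 810.1 CPM in sham libraries. Of 9 mesothelial genes 7 had positive values in the mean of both days and 9 at day 14, where their median was 0.85. None was called, and 2 had an unadjusted p under 0.05 in edgeR in each, against 10.3% and 6.81% of all genes. Sums were 1282 to 3827 CPM in PNX libraries and 797.2 to 4418 CPM in sham libraries. Krt8 and Krt19 are in both the epithelial and the mesothelial list, so these lists are not independent. The mesothelial gene Wt1 had a log2 fold change of 3.85 at day 14. Red cell sums ran over 253.5 to 79880 CPM in PNX libraries and 3033 to 23510 CPM in sham libraries. PNX day 14 replicate 2 had the highest. Of 10 adventitial fibroblast genes 2 had positive values at day 7 and 8 at day 14, with medians of -1.05 and 0.33. Of 10 smooth muscle genes 3 were positive at day 7 and 8 at day 14. In the mean, 6 of 10 pericyte and 0 of 3 Schwann cell genes were positive. No gene of these further lists was called by edgeR on either day or in the mean. None of these genes was at 0 in every library, and their part in the Wisp1 result was not tested. In bulk samples fewer cells of a type and less RNA per cell cannot be told apart.

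Cyr61, whose protein binds integrins and which is among the best known direct YAP and TAZ targets, did not pass the test. At day 7 it measured 1560, 1656 and 1987 CPM after PNX, against 4008, 1705 and 4306 CPM after sham. At day 14 it measured 2462, 1798 and 1300 CPM after PNX, against 1546 and 3758 CPM after sham. The highest PNX library exceeded the lowest sham library on both days, so the groups overlapped. The log2 fold change was -0.95 ± 0.44 (SE) at day 7 (adjusted p = 0.373 in edgeR) and -0.73 ± 0.32 averaged over both days (adjusted p = 0.435 in edgeR). The value over both days became -0.30 without sham day 14 replicate 2, and lay between -0.99 and -0.30 as single libraries were left out.

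Cyr61 is also an immediate early gene, transcribed within minutes of stimulation or of tissue handling. The 25 listed immediate early and stress genes summed to 18210 to 24100 CPM in PNX libraries and 41580 to 70130 CPM in sham libraries at day 7. At day 14 they summed to 14500 to 22680 CPM in PNX libraries and 14850 to 31850 CPM in sham libraries. In the mean of both days 20 of the 25 had negative log2 fold changes and none was called by edgeR, with 10 lower at an unadjusted p under 0.05. Over all genes 46.6% had positive values in that comparison, and 10.3% had an unadjusted p under 0.05 in edgeR. The 3 libraries with the highest Cyr61, sham day 7 replicates 1 and 3 and sham day 14 replicate 2, were among the 4 with the highest sums. Sham day 7 replicate 2 combined a high sum with a Cyr61 level of 1705 CPM. The part of this response in the Cyr61 values was not tested.

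**Figure D2:**
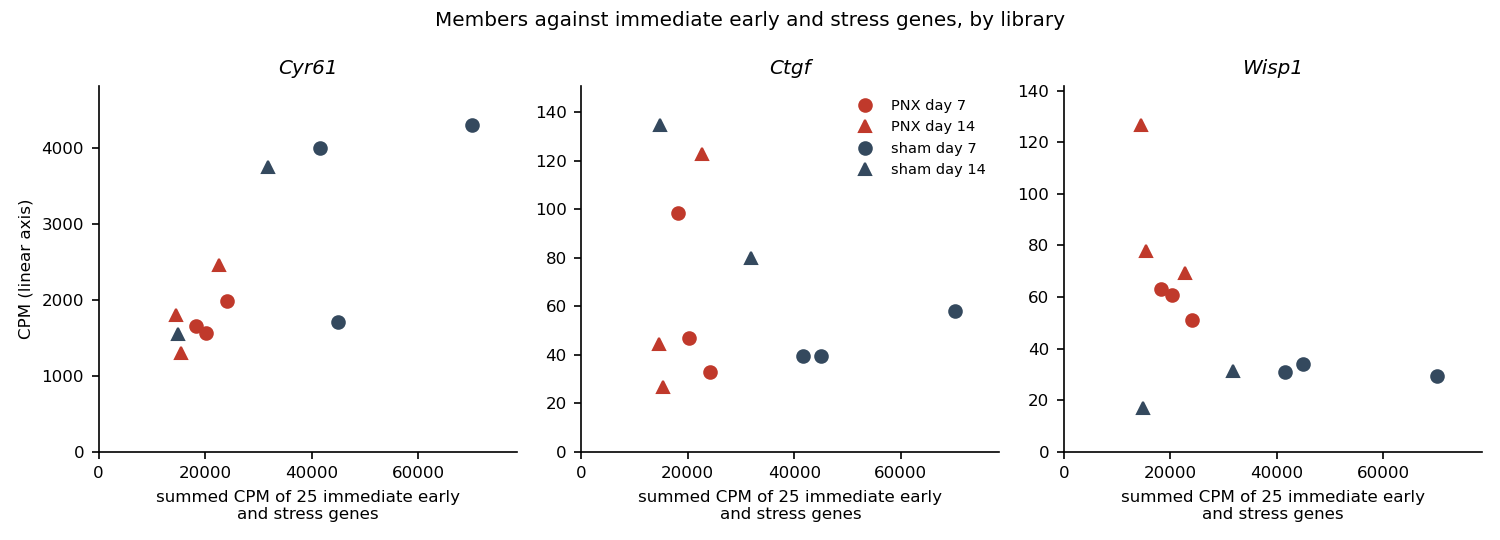
Each point is 1 library (red PNX, blue sham, circles day 7, triangles day 14), with the summed CPM of 25 immediate early and stress genes on the x axis and the CPM of Cyr61, Ctgf or Wisp1 on the y axis. Of the 4 libraries with the highest sums, all sham, 3 hold the highest Cyr61, and the 6 PNX libraries, with sums of 14500 to 24100 CPM, hold the highest Wisp1 values.

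Ctgf, the CCN gene most often used as a readout of YAP and TAZ and a downstream effector of TGF-beta, varied widely within the PNX groups. At day 7 it measured 46.9, 98.6 and 32.9 CPM after PNX, against 39.6, 39.5 and 57.9 CPM after sham. At day 14 it measured 122.7, 44.3 and 26.7 CPM after PNX, against 134.7 and 79.8 CPM after sham. Its log2 fold change was 0.37 ± 0.50 (SE) at day 7 and -0.73 ± 0.55 at day 14, with adjusted p of 0.812 and 0.820 in edgeR, and the groups overlapped on both days. In the authors' table its reads may include those of the antisense transcript Gm15270, which overlaps its exons, since the strand setting of the counting is not given in the sources used here.

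Nov and Wisp2 are the CCN genes known in several cell types for effects opposed to those of Ctgf. Nov measured 38.9, 41.0 and 48.8 CPM after PNX at day 7, against 72.0, 20.2 and 48.9 CPM after sham. By day 14 the values were 81.5, 98.1 and 66.1 CPM after PNX, against 37.3 and 52.0 CPM after sham. The day 14 groups did not overlap, but the log2 fold change of 0.87 ± 0.43 (SE) did not pass the test (adjusted p = 0.747 in edgeR). Wisp2, which lacks the C-terminal domain of the other CCN proteins, measured 214.0, 162.3 and 110.1 CPM after PNX at day 7, against 215.9, 381.2 and 199.2 CPM after sham. At day 14 Wisp2 measured 221.1, 73.3 and 97.3 CPM after PNX, against 78.3 and 230.7 CPM after sham. Its log2 fold change was -0.71 ± 0.46 at day 7 (adjusted p = 0.595 in edgeR) and -0.25 ± 0.51 at day 14 (adjusted p = 0.932 in edgeR), with overlapping groups.

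The transcripts of the pathway's regulators did not pass the test at either day. Yap1 measured 46.6, 47.9 and 47.7 CPM after PNX at day 7, against 41.2, 54.8 and 22.5 CPM after sham. At day 14 Yap1 measured 52.2, 40.3 and 62.7 CPM after PNX, against 30.9 and 51.7 CPM after sham. The 3 PNX libraries of day 7 lay close together, inside the range of the sham libraries. The 95% interval of its log2 fold change in the mean of both days was -0.26 to 0.84, so an increase of up to 0.84 lies within the interval. An antisense transcript, Gm20416, overlaps the exons of Yap1.

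Wwtr1, which encodes TAZ, was the steadiest of the 10. At day 7 it measured 96.0, 82.8 and 62.3 CPM after PNX, against 65.4, 77.7 and 84.2 CPM after sham. Levels at day 14 were 96.1, 120.5 and 74.6 CPM after PNX, against 76.3 and 85.6 CPM after sham. The groups overlapped on both days, and the log2 fold change in the mean of both days was 0.17 ± 0.23 (SE; 95% interval -0.31 to 0.65).

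Tead1, the DNA-binding partner, measured 73.6, 81.1 and 55.4 CPM after PNX at day 7, against 53.0, 69.4 and 25.5 CPM after sham. The day 14 libraries held 74.8, 94.3 and 80.5 CPM after PNX, against 31.9 and 68.6 CPM after sham. The groups overlapped at day 7 and not at day 14. In the mean of both days its log2 fold change was 0.61 ± 0.28 (SE), which did not pass the test (adjusted p = 0.470 in edgeR). Leaving out sham day 14 replicate 1 gave 0.38, and 0.27 at day 14 alone. Omitting sham day 14 replicate 2 gave 0.99, and 1.53 at day 14 alone.

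Ankrd1, a stretch-responsive ankyrin repeat protein best known from heart muscle, had the lowest counts of the 10, with 18 to 69 per library. It measured 11.7, 10.2 and 6.42 CPM after PNX at day 7, against 9.28, 4.94 and 7.25 CPM after sham. At day 14 Ankrd1 measured 11.6, 10.2 and 4.05 CPM after PNX, against 6.38 and 7.81 CPM after sham. The groups overlapped, and the log2 fold change in the mean of both days was 0.33 ± 0.35 (SE).

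Amotl2, an angiomotin family protein that binds YAP and is itself a target, measured 49.1, 61.5 and 59.7 CPM after PNX at day 7, against 60.3, 58.4 and 131.9 CPM after sham. At day 14 Amotl2 measured 65.7, 56.7 and 36.4 CPM after PNX, against 58.5 and 84.0 CPM after sham. Sham day 7 replicate 3, which also held the highest immediate early sum, was well above the rest. The log2 fold change in the mean of both days was -0.50 ± 0.27 (SE; adjusted p = 0.565 in edgeR). Without sham day 7 replicate 3 it was -0.25, and the day 7 value alone was -0.065.

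**Figure D3:**
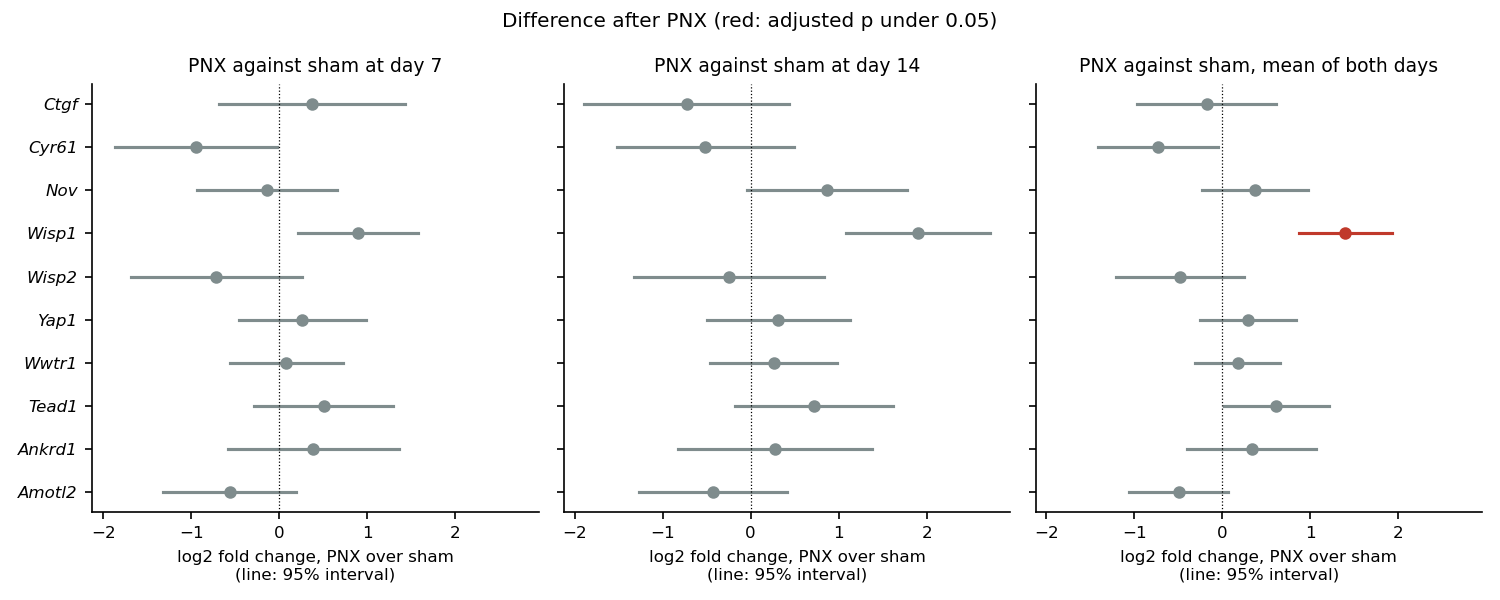
The panels plot the log2 fold change, PNX over sham, of each gene at day 7, at day 14 and averaged over both days, with lines for the 95% interval and red for an adjusted p under 0.05. Wisp1 in the mean of both days, at 1.40, is the only red point.

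At day 7 none of the 10 was called by edgeR, where 0.0375% of all genes were, and 2 (Wisp1 and Cyr61) had an unadjusted p under 0.05, against 12.7% of all genes. At day 14 none was called, where 0.00625% of all genes were, and Wisp1 had an unadjusted p under 0.05, against 6.81% of all genes. DESeq2 called 1 of the 10 at day 14 and limma voom with sample weights 1 at day 7, Wisp1 in both cases. DESeq2 called none at day 7 and voom none at day 14. Groups did not overlap for 1 of the 10 at day 7, where 19.5% of all genes had such groups. At day 14 they did not overlap for 3, Wisp1, Nov and Tead1, against 17.9% of all genes. At both days 6 of the 10 had positive log2 fold changes, and Nov at day 7 turned positive as well when total counts replaced TMM factors. Their median was 0.18 at day 7 and 0.27 at day 14, and the median of all genes tested was 0.03 and -0.07. Of all genes 51.7% had positive values at day 7 and 45.1% at day 14.

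Between days none of the 10 was called. Of all genes 0% were called for day 14 against day 7 after PNX, 0.0187% for day 14 against day 7 after sham, and 0% for the interaction. Unadjusted p-values under 0.05 were found for 1 gene after PNX (Nov), 1 after sham (Ctgf) and 0 for the interaction, against 6.85%, 14.3% and 8.76% of all genes in the same order. DESeq2 and limma voom called none of the 10 in these 3 comparisons. Nov had a log2 fold change of 0.93 ± 0.38 (SE) for day 14 over day 7 after PNX (adjusted p = 0.724 in edgeR). All 3 day 14 libraries of Nov were above all 3 day 7 libraries, as were those of Wisp1, and groups that did not overlap were seen for 18.1% of all genes in this comparison. Ctgf had a log2 fold change of 1.23 ± 0.55 for day 14 over day 7 after sham (adjusted p = 0.315 in edgeR). Both day 14 libraries of Ctgf were above the 3 of day 7, and such groups were seen for 24.3% of all genes.

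The wider pathway was described with 6 gene lists. No gene of these lists was called by edgeR on either day or in their mean. Some lists share genes, so they are not independent. Lats2 and Ptpn14 are in both the upstream Hippo and the YAP and TAZ target list. Acta2, Tagln, Cnn1 and Actg2 are in both the serum response factor and the smooth muscle list. Among 22 upstream Hippo genes, 11 had positive log2 fold changes at day 7 and 14 at day 14, with 4 and 0 at an unadjusted p under 0.05. Over all genes 51.7% and 45.1% had positive values on these days, and 12.7% and 6.81% had an unadjusted p under 0.05 in edgeR. Nf2, which encodes the Hippo activator merlin, averaged 13.7 ± 4.15 CPM after PNX and 40.1 ± 21.8 CPM after sham at day 7 (SD, n = 3 each), a log2 fold change of -1.56 ± 0.41 (SE; adjusted p = 0.118 in edgeR). Map4k4, a kinase that activates the LATS kinases, averaged 70.5 ± 13.7 CPM after PNX and 33.1 ± 7.62 CPM after sham at day 7 (adjusted p = 0.183 in edgeR).

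Of the other TEAD factors and the VGLL cofactors, which compete with YAP for TEAD, 5 of 7 were tested, and 4 of the 5 had negative values on each day. Tead2 averaged 11.7 ± 3.41 CPM after PNX and 20.9 ± 9.35 CPM after sham at day 7 (SD, n = 3 each), with an adjusted p of 0.413 in edgeR. Among 18 further YAP and TAZ target genes the median log2 fold change was -0.20 at day 7 and 0.16 at day 14. At day 7, 4 had positive values, and at day 14, 12 did. Igfbp3, an insulin-like growth factor binding protein, averaged 55.1 ± 23.3 CPM after PNX and 137.5 ± 31.5 CPM after sham at day 7 (adjusted p = 0.120 in edgeR). Axl, a receptor tyrosine kinase, averaged 153.9 ± 23.2 CPM after PNX and 471.7 ± 379.6 CPM after sham at day 7 (adjusted p = 0.138 in edgeR). Ccdc80, a secreted matrix protein, averaged 1694 ± 240 CPM after PNX (n = 3) and 391.2 ± 252.5 CPM after sham (n = 2) at day 14, a log2 fold change of 2.11 ± 0.59 (SE; adjusted p = 0.340 in edgeR).

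Serum response factor (SRF) and its MRTF coactivators form the other main route from actin tension to transcription. Of 18 genes of this list 8 had positive values at day 7 and 10 at day 14, with medians of -0.03 and 0.22. Zyx, a focal adhesion protein, averaged 127.1 ± 17.1 CPM after PNX and 399.0 ± 194.2 CPM after sham at day 7 (SD, n = 3 each), a log2 fold change of -1.65 ± 0.41 (SE; adjusted p = 0.101 in edgeR). Mkl2, an MRTF gene, averaged 114.6 ± 29.2 CPM after PNX and 53.1 ± 25.7 CPM after sham at day 14 (adjusted p = 0.594 in edgeR).

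Receptors for CCN proteins numbered 10, with 4 positive values at day 7 and 8 at day 14. Itgav, the integrin alpha-v subunit, averaged 164.2 ± 14.4 CPM after PNX (n = 3) and 76.3 ± 21.4 CPM after sham (n = 2) at day 14, a log2 fold change of 1.10 ± 0.36 (SE; adjusted p = 0.478 in edgeR). The proteins of Itgam and Itgb2 pair on leukocytes. Itgam was near the floor, with at most 14 counts in a library and means of 0.239 CPM after PNX and 3.04 CPM after sham at day 14. The log2 fold change was -3.49 ± 1.32 (SE) for Itgam at day 14 and -1.57 ± 0.65 for Itgb2 averaged over both days. Neither passed the test. Itgam is also in the haematopoietic list, all 21 genes of which had negative values at day 14. Of 10 mechanosensing genes, 5 had positive values at day 7 and 10 at day 14. Piezo2, a stretch-gated ion channel, averaged 29.4 ± 11.4 CPM after PNX and 11.2 ± 4.47 CPM after sham at day 7 (adjusted p = 0.138 in edgeR). At day 14 Piezo2 averaged 23.2 ± 2.70 CPM after PNX and 12.5 ± 4.20 CPM after sham (adjusted p = 0.747 in edgeR).

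The other genes of smallest p in these lists had an adjusted p of 0.194 to 0.949 in edgeR. At day 7 they were Vgll3, the MRTF gene Mkl1, the endocytic receptor gene Lrp1, the integrin gene Itga6 and Arhgef2, which encodes an activator of RhoA. At day 14 they were the LIM protein gene Ajuba, the kinase gene Taok1, Tead2 and Tead3, the growth factor gene Tgfb2, the smooth muscle actin gene Actg2, Itgam, and Lmna, which encodes the nuclear lamina protein lamin A/C. In the mean of both days they were Srf itself, Itgb2, Map4k4, Tead2, Vgll3, Itgav and the kinase gene Rock1. Nf2, Igfbp3, Ccdc80, Zyx and Piezo2 were also among those of smallest p in that comparison, with adjusted p of 0.0962 to 0.219 in edgeR.

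**Figure D4:**
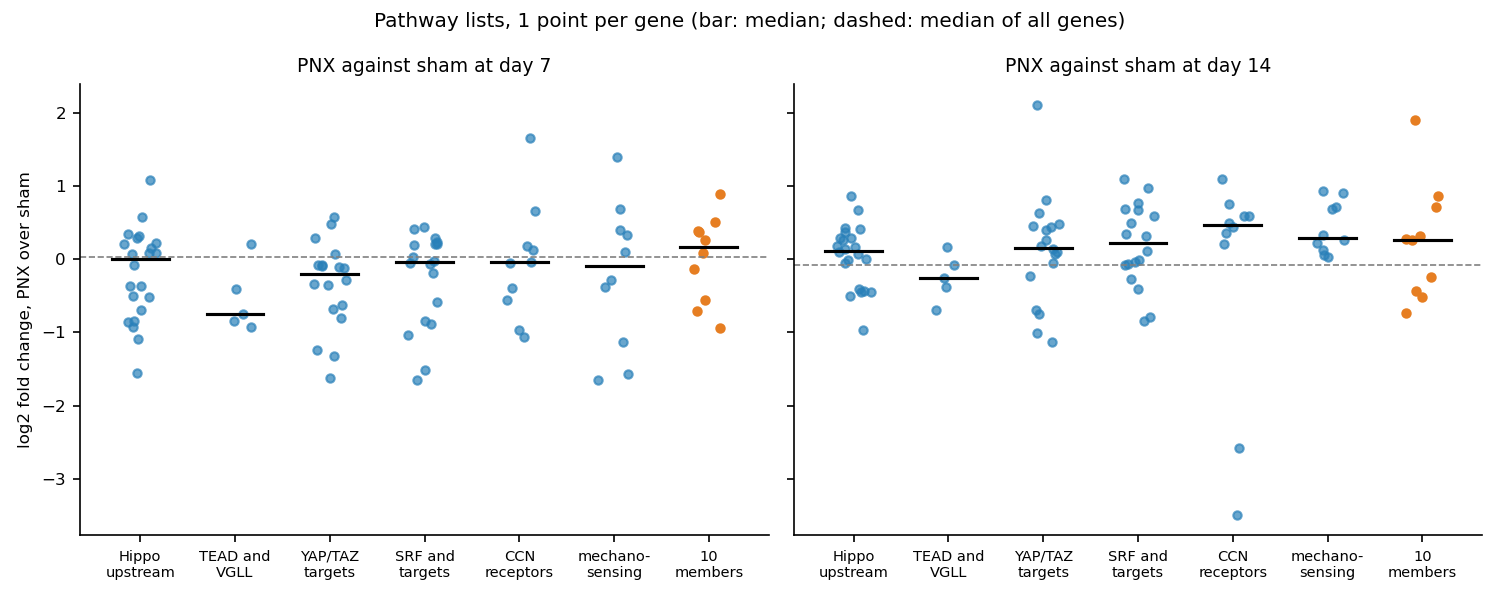
Each point is the log2 fold change of 1 gene, PNX over sham, at day 7 (left) and day 14 (right), in 6 pathway lists (blue) and for the 10 genes (orange), with a bar at the list's median and a dashed line at the median of all genes tested. The medians of the 10 genes are 0.18 and 0.27, and Ccdc80 at 2.11 is the highest point of the YAP and TAZ target list at day 14.

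The genes closest in pattern to these genes were found by the root mean square difference of log2 CPM, each gene centred on its own mean over the 11 libraries, among 9435 better expressed genes. Wisp1 was closest to Cpne8 (0.29), Prkd1 (0.30) and Sparc (0.32). The root mean square deviation of Wisp1 from its own mean was 0.78, and the median difference over all candidates was 0.86. Genes picked as the closest lie below that median by construction. Cyr61 was closest to Colec12, Aldh3a2 and Atp6ap1 (0.20 to 0.21). Ctgf had no close match, with Tnfrsf12a, Zdhhc5 and Tagln at 0.47 to 0.51. Nov was closest to Them4, Myl9 and Nucb2 and Wisp2 to Rem1, Map3k3 and Clasp2. Yap1 was closest to Ankhd1, at 0.11, followed by Ncor1 and Cep350. Tead1 was closest to Raph1, Rbm26 and Hmcn1, Ankrd1 to Ctsk, Pank3 and Jagn1, and Amotl2 to Pgam5, Nfkbiz and Setd3. Within the 10, the smallest differences were between Yap1 and Tead1 (0.31), between Cyr61 and Amotl2 (0.36) and between Wwtr1 and Ankrd1 (0.39). The root mean square deviation from its own mean was 0.25 for Wwtr1 and 0.46 for Ankrd1. The difference of 0.39 was thus larger than the whole variation of Wwtr1 and does not show a like pattern. Ctgf and Cyr61, often read together as YAP and TAZ targets, differed by 0.90. These values describe the same 11 libraries, which share differences in depth and cell content.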

How the data were processed

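Read counts per gene symbol, deposited by the authors as 1 table with a column per library, were used for all 11 libraries. Per the labels' protocols, the RNeasy Micro and NEBNext single cell/low input kits were used. Per the submitters' processing notes, bcl2fastq 2.20.0.422 and mm10 were used. The aligner, counting tool, annotation and strand setting are not given in the sources used here.

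The tests used edgeR 4.0.16 under R 4.3.3, after filterByExpr had kept 16011 of 24411 genes. With TMM scaling, 1 robust quasi-likelihood model held the means of the 4 groups. Benjamini-Hochberg adjustment ran over every gene tested, and 0.05 was the threshold. The standard error is the log2 fold change divided by the square root of F. The steps were tested on simulated data. Log2 CPM used a prior count of 2. Exon length and location came from GENCODE M21, with 98.5% of symbols matched. No pair of libraries of a group agreed within sampling noise. Alternatives used DESeq2 1.42.0 and limma 3.58.1.

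Text names the 10 genes, Wisp3, genes of smallest p in each pathway list, and the 3 genes of most like pattern, with names of predicted genes left out. The genes of most like pattern to Wwtr1 are not reported here. Values are printed for a part of the pathway genes this rule gave, chosen after they were seen. For comparisons between days a value is given for the gene of smallest p. The genes and lists were chosen with earlier results of these data known.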

Additional observations from a re-analysis of the deposited data

How the results depend on the processing

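Of the 10 genes, 33 log2 fold changes were recomputed under other settings, giving 715 values, of which 16 changed sign and 9 changed call. The call of Wisp1 in the mean of both days held in 15 of 21 settings, with log2 fold changes of 1.22 to 1.70, positive in all 21. The number of the 10 genes called fell to 0, against 1, with limma voom (Wisp1 1.34, adjusted p = 0.0911) and without the 3 libraries of highest olfactory and vomeronasal receptor counts, and ranged over 0 to 1 when single libraries were left out. Wisp1 was called at day 7 with voom (1 gene; 0.96, adjusted p = 0.0339), and at day 14 with DESeq2 (1 gene; 1.88, adjusted p = 0.000739) and without sham day 14 replicate 2 (2.57, adjusted p = 0.0353), which made the count 0 to 1 over left-out libraries. The adjusted p of Wisp1 ranged over 0.0339 to 0.789 at day 7, 0.000739 to 0.451 at day 14 and 4e-05 to 0.111 in the mean of both days.

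Nov at day 7 became 0.10 with total counts, Ctgf at day 7 -0.31 without the 3 libraries, and Wwtr1 at day 14 -0.013 with a GC offset, a setting chosen after seeing the data. Leaving out single libraries gave, at day 7, -0.22 to 0.62 for Ctgf, -0.53 to 0.31 for Nov, -0.018 to 0.53 for Yap1 and -0.12 to 0.19 for Wwtr1. At day 14 it gave -1.03 to 0.40 for Cyr61, -0.86 to 0.87 for Wisp2, -0.011 to 0.89 for Yap1 and -0.68 to 0.0011 for Amotl2, and in the mean of both days -0.60 to 0.021 for Ctgf and -0.79 to 0.055 for Wisp2. None of these was called. The cause of the changes was not tested. Total counts without TMM factors moved the median of all genes by 0.18 at day 7 and by -0.19 at day 14.

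The other 27 log2 fold changes of the planned settings, all from the comparisons between days, were computed as well and left out of the text after their values were seen. Of their 585 values 92 changed sign, over 23 of the 27, and 0 were called.

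With the replicate number as a block, the replicate block fit, Wisp1 in the mean of both days was 1.45 (adjusted p = 0.0370) and no count of the 10 genes called changed. Same-numbered PNX and sham libraries deviated from their group means with correlations of -0.14, 0.56 and 0.24 at day 7 and of -0.27 and -0.21 at day 14, so the numbers were not taken to pair them. A fit of only the groups compared gave no separate value for the mean of both days or the interaction, which use all groups. Without 1 sham day 14 library, or without the 3 libraries, the lone library left was assumed to vary like the other groups. Over all genes edgeR called 22 higher and 9 lower in the mean of both days, DESeq2 129 and 175, and voom 3 and 2. Depth limits Ankrd1 most, at 18 to 69 counts per library.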
